A study of Mus musculus with 24 samples.

Results

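The livers compared here came from 12 of the 24 mice of the series, those without a functional growth hormone receptor (GHR), and the comparison was between the 6 males and the 6 females. Mice were taken by their labels: 3 male and 3 female GHR-/- (Laron) mice that received no injection, and 3 male and 3 female AAV-HLP-Luc mice. The AAV-HLP-Luc mice were also GHR-/- mice. At 4 to 5 weeks of age they received 1 injection of 40000000000 vector genomes of an adeno-associated virus of serotype 8 that carried luciferase behind HLP, a small promoter active in liver. The GHR-/- livers were taken at 21 weeks of age and the AAV-HLP-Luc livers at 30 to 31 weeks, 25 to 26 weeks after the injection, so age and vector cannot be told apart between these groups, and the group entered the fit as a covariate. In both groups the receptor was missing from every tissue and from birth, so these livers also developed in dwarf animals. The same 2 sexes were available in GHR+/+ mice of 21 weeks with an intact receptor and in AAV-HLP-mGHR mice, GHR-/- animals whose vector carried the mouse receptor and whose age was that of the AAV-HLP-Luc mice. Each group had 3 males and 3 females, and these served for comparison.

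Mouse liver is one of the most dimorphic organs outside the gonads. In males the pituitary releases growth hormone in pulses with quiet intervals, and in females nearly continuously. The hepatocyte reads this rhythm through GHR, JAK2 and the transcription factor STAT5b. Male-biased genes include the major urinary proteins (Mups), Cyp2d9 and Cyp7b1. Female-biased genes include Cyp2a4, Cyp2b9, the Sult2a sulfotransferases and the prolactin receptor Prlr. According to the paper, many male-biased genes rely on the male pulses, and many female-biased genes are inhibited by them. Gonadal steroids and the sex chromosomes can also act on liver. The comparison of 6 against 6 asks how much of the dimorphism was measured in such livers.

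Poly(A) RNA was sequenced as stranded libraries, 1 per mouse, and reads were counted per gene by the authors. The count table in hand covers 1999 of 56748 genes, all abundant (lowest mean count over the libraries 1123), so genes of low expression in every group are outside these results. Of the 1999 genes, 1943 were autosomal, and 1935 of these reached 10 counts in at least 6 of the 12 libraries and were tested. Total counts of autosomal genes were between 25231545 and 27517881 in the males and between 24983908 and 33272695 in the females (exact permutation test of mice exchanged between the sexes within each group, 2-sided, p = 0.25). Size factors, by which counts were divided to give normalized counts, were lower in males (mean 0.923 against 1.04, exact permutation p = 0.035), and with library totals in their place the median difference over all genes was -0.07 on the log2 scale. In the comparison groups the autosomal totals did not overlap between the sexes. They were 24341823 to 25766513 in GHR+/+ males and 30895708 to 35032138 in GHR+/+ females. In AAV-HLP-mGHR mice they were 26863249 to 29049128 in males and 31203556 to 34893845 in females. Depth and sex cannot be told apart within those groups.

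The labels were checked first. Ddx3y, a gene of the Y chromosome, had normalized counts of 2107 to 2886 in the 6 males and 0 in the 6 females. Ghr itself was between 1416 and 2655 in the males and between 2054 and 3251 in the females, against 18656 to 27587 in the 6 GHR+/+ mice, so transcripts of the disrupted gene were still counted at a lower level in all 12 livers. The sexes did not separate in Ghr (log2 difference -0.28, standard error (SE) 0.17, limma adjusted p = 0.565). Of 10 hepatocyte markers 6 were higher and 4 lower in males, with a median log2 difference of 0.01 (3 higher and a median of -0.05 without AAV-HLP-Luc male 005 and female 016), and albumin (Alb) differed by 0.04.

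Among the 12 receptor-null livers, those of 2 AAV-HLP-Luc mice stood apart. Male 005 had normalized counts of 322774 for the acute-phase gene Saa1, where the other 5 males had 1168.5 to 27275, and of 669915 for haptoglobin (Hp), where the others had 97488 to 196313. Its counts of Cyp2b9, Cyp2b13 and Vnn1 were the lowest among the males. Female 016 had the lowest counts among the females for Sult2a1, Sult2a2, Sult2a3 and Cyp2b13. Among 124 sets of 6 values that were checked, 22 had a mouse far from the other 5, and male 005 was that mouse in 13 and female 016 in 8. For several results that changed without these livers, the value without them is given. The comparison groups also held livers with high acute-phase counts. GHR+/+ male 101 had 173631 for Saa1 (721 and 29648 in the other males) and 421607 for Hp (74336 and 133100). AAV-HLP-mGHR female 024 had 185399 for Saa1 (555 and 1250 in the other females) and 307535 for Hp (67012 and 74993). The sex differences of those groups include these mice.

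Between the 6 males and the 6 females, 0 of 1935 genes passed an adjusted p of 0.05 (0% called, limma-voom with Benjamini-Hochberg adjustment). The smallest adjusted p was 0.0853, for Cyp2a4. At an unadjusted p under 0.05 there were 214 genes (11.1%), of which 106 were higher in males (5.48%) and 108 were lower (5.58%). Other tools gave a few calls. limma-trend called 3 genes (Cyp2a4, Igf1 and Kyat3), and a voom fit with a quality weight for each library called 4 (Cyp2a4, Cyp2c68, Dcn and Abhd2). One fit over all 24 libraries called 10. Without male 005 the number was 3 (Cyp2a4, Cyp2c68 and Abhd2), without GHR-/- female 132 it was 1 (Cyp2a4), and without both male 005 and female 016 it was 0, with 214 genes at an unadjusted p under 0.05. Cyp2a4 was called under 6 of the 22 alternatives, more than any other named gene.

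The median of the absolute log2 difference was 0.12 in the pooled receptor-null livers, against 0.18 in GHR+/+ livers, which had fewer mice. With 3 mice of each sex it was 0.13 in GHR-/- livers and 0.20 in AAV-HLP-Luc livers, above the GHR+/+ value. Log2 differences were above 0 in 985 genes (50.9%) and below 0 in 950 (49.1%). A difference of more than 1 log2 unit was fitted for 28 genes, 17 higher and 11 lower in males, compared with 110 genes in GHR+/+ livers. The 95% confidence interval lay within 1 log2 unit on either side of 0 for 1807 genes (93.4%), so for these a difference of more than 2-fold between the sexes was outside the interval. For the other 128 genes it was not. The 6 males and 6 females did not overlap in normalized count for 23 genes (1.19%), 9 higher and 14 lower in males. Those with the smallest p are described next, as values and not as calls, since none of them passed the adjusted threshold.

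Cyp2a4, a testosterone hydroxylase of female liver (chr7:26006594-26014513, GRCm39, plus strand), led the list. Its normalized counts in the males were 1047 at the lowest, 3111 at the median and 5432 at the highest, and in the females 7322, 11445 and 16972. Every female was above every male. The log2 difference was -1.93 (SE 0.31, 95% interval -2.61 to -1.26), and the adjusted p of 0.0853 was between 0.00288 and 0.220 over the alternatives (limma). The difference was -1.83 without male 005 and female 016. In GHR+/+ livers the same gene was nearly silent in males, at 3.5, 6.0 and 22.0 normalized counts, and at 37391, 49160 and 59969 in females. The receptor-null livers of both sexes thus lay between these levels, far above the GHR+/+ males and below the GHR+/+ females, as the plot of genes by mouse shows. In AAV-HLP-mGHR livers males (26175 to 46250) and females (17180 to 61524) overlapped.

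The near copy of Cyp2a4 gave a contrast. Cyp2a5, a coumarin hydroxylase whose transcript shares 11.2% of the 100-base windows of the Cyp2a4 transcript, was far more abundant and did not separate the sexes: males were at 91547, 169308 and 313079 (lowest, median, highest) and females at 146673, 179359 and 235618, with a log2 difference of -0.02 (95% interval -0.58 to 0.54). Reads from the shared windows could be assigned to either gene. Upstream of their transcription starts these genes are nearly identical. Over the 240 bases that align, 235 were the same (97.9%) and 5 differed. The 250 bases before each GENCODE start (canonical transcript, GRCm39) are shown because a gene that separated the sexes and a gene that did not share them; capitals mark the bases that differ between the pair.
Cyp2a4, chr7:26006344-26006593, plus strand: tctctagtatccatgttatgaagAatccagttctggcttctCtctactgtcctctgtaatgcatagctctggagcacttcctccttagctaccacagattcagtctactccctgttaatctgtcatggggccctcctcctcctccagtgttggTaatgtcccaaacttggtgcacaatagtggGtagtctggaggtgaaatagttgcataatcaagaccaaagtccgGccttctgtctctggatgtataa
Cyp2a5, chr7:26534480-26534729, plus strand: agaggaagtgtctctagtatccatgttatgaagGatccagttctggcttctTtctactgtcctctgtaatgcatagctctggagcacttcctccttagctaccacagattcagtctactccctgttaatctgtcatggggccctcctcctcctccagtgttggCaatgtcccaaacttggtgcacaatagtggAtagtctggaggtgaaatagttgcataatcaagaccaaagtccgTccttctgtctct
The STAT5 motif TTCNNNGAA, which reads the same on both strands, was in neither window, while 126 of the 1935 windows of the tested genes held it (6.51%).

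Cyp2c68, a Cyp2c monooxygenase (chr19:39676779-39729553, minus strand), was second. Males had 6034, 8893 and 9927 normalized counts and females 10393, 12059.6 and 14857 (lowest, median, highest), without overlap. The log2 difference was -0.56 (SE 0.10, limma adjusted p = 0.110, and 0.0174 to 0.281 over the alternatives), nearly the same in GHR-/- (-0.53) and AAV-HLP-Luc livers (-0.58), and -1.86 in GHR+/+ livers. Its neighbor Cyp2c67 had the same direction in the receptor-null livers (-0.50, SE 0.10), with males at 2603, 2956 and 3547 and females at 3503, 4206 and 5157, but the opposite direction in GHR+/+ livers (0.48). These genes shared 3.99% and 4.09% of their transcript windows. Their upstream sequences had 193 identical bases over 210 aligned positions (91.9%), with 15 different and 2 unpaired bases, given in capitals. They are shown because the pair had like fitted differences without the receptor and opposite ones with it, where Cyp2c67 was not called.
Cyp2c67, chr19:39637501-39637750, minus strand: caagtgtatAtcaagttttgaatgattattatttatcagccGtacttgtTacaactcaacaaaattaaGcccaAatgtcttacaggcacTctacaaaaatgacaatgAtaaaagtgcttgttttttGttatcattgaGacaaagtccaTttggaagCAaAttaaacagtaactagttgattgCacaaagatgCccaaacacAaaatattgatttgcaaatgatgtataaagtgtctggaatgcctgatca
Cyp2c68, chr19:39729554-39729803, minus strand: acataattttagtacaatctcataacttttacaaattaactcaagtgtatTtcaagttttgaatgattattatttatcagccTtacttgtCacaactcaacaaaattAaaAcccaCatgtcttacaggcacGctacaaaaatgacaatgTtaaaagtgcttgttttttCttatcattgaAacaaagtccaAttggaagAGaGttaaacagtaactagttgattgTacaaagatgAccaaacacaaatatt
Neither window held the STAT5 motif.

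Igf1, the circulating growth factor that liver makes under growth hormone (chr10:87693642-87772904, plus strand), was low in all 12 livers but separated the sexes. The males were at 234, 283 and 364 normalized counts and the females at 607, 1187 and 2244 (lowest, median, highest), against 17785 to 28023 in the GHR+/+ mice of both sexes. The log2 difference was -2.19 (SE 0.58), with -2.36 in GHR-/- and -1.87 in AAV-HLP-Luc livers. Its adjusted p was 0.191 with limma-voom and 0.00189 with limma-trend, and the cause of this change was not tested. In GHR+/+ livers the log2 difference was -0.20 (limma adjusted p = 0.486), and the difference between these differences did not pass (limma adjusted p = 0.388). Igf1 was therefore higher in every receptor-null female than in every receptor-null male, on a level that was a small part of that with the receptor.

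**Figure D1:**
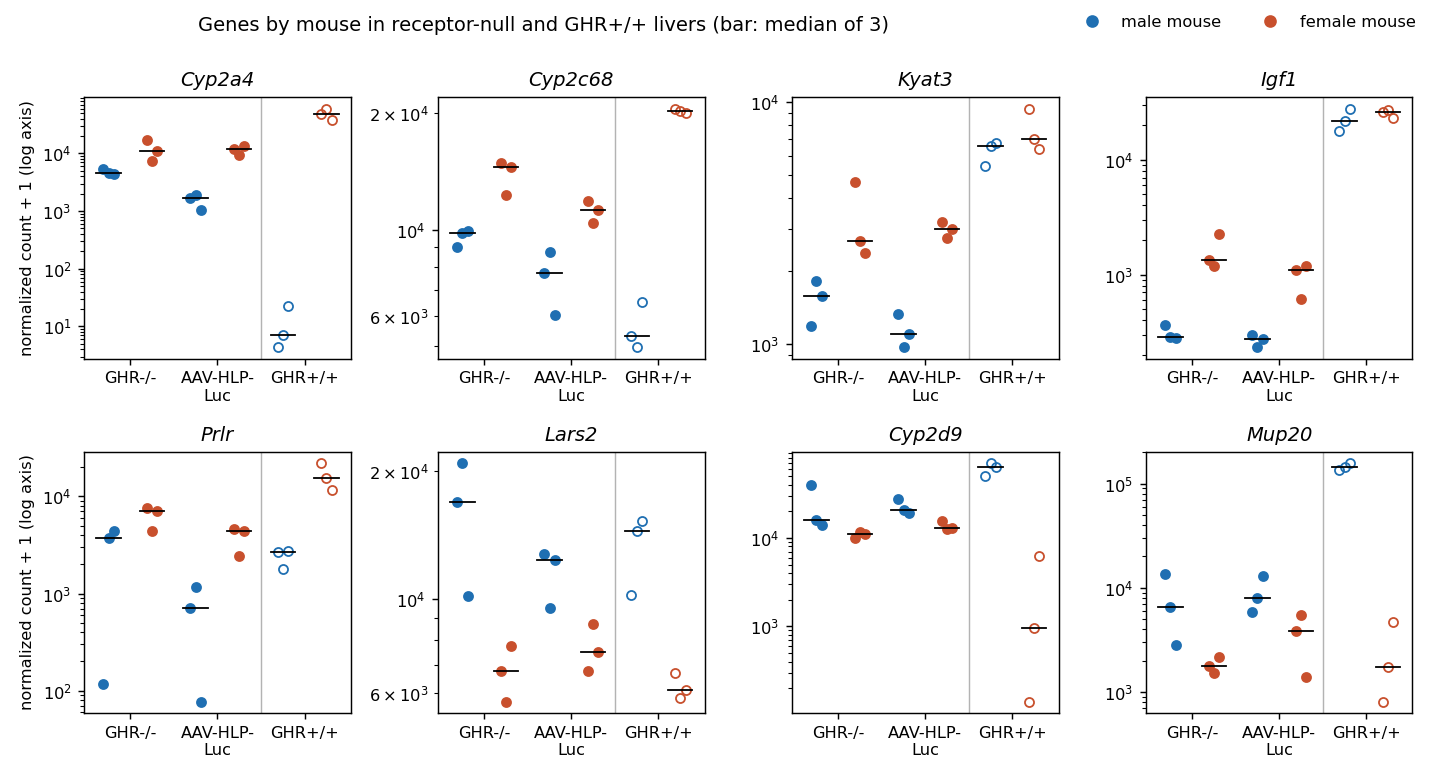
Normalized counts plus 1 on log axes for 8 genes in individual mice. Filled points are the receptor-null GHR-/- and AAV-HLP-Luc livers and open points the GHR+/+ livers, males in blue and females in orange-red, with a bar at the median of 3 mice. Cyp2a4, Cyp2c68, Kyat3, Igf1 and Lars2 did not overlap between the 6 receptor-null males and 6 females, and Cyp2d9 and Mup20 spread far more widely between the sexes in GHR+/+ livers.

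Kyat3, an aminotransferase that makes kynurenic acid from kynurenine, was lower in males, at 978, 1260.3 and 1818 against 2369, 2854 and 4653 in females (log2 -1.19, SE 0.24). With the receptor the difference was -0.26 and in AAV-HLP-mGHR livers -0.01. Lars2, the mitochondrial leucyl-tRNA synthetase, was the leading gene in the other direction, at 9516, 12564.5 and 20881 in males and 5732, 7140.4 and 8737 in females. Its log2 difference of 0.89 (SE 0.18) was close to the 1.08 measured in GHR+/+ livers, where it was called (limma adjusted p = 0.0135), and to the 0.78 in AAV-HLP-mGHR livers. The interaction estimate for Lars2 was 0.19 (95% interval -0.39 to 0.77, limma adjusted p = 0.835).

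Others of the genes with the smallest p and no overlap had log2 differences between -0.79 and 1.11. Higher in males were, among others, Hp (1.11), Vmp1, a membrane protein of autophagy (0.37), Tmem14c of mitochondrial heme synthesis (0.33), and the respiratory chain genes Atp5mc3 (0.28) and Sdhc (0.20). Hp was at 97488, 126493 and 669915 in males and 53369, 78007 and 96463 in females, and without male 005 its log2 difference was 0.75.

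Lower in males were the peroxisomal transporter Abcd2 (-0.79), the iron exporter ferroportin (Slc40a1, -0.64), the clock-controlled transcription factor Dbp (-0.47), the translation factor Eif4b (-0.45), the coagulation factor XIII subunit F13b (-0.43), the lysosomal sterol carrier Npc2 (-0.33), the sulfide oxidizing enzyme Sqor (-0.28), nucleolin (Ncl, -0.22) and the phosphatase subunit Ppp2ca (-0.20). Slc40a1 was at 2574, 4072 and 4776 in males and 5108, 5758 and 6117 in females. Abcd2 was at 1199, 3344 and 4376 in males and 4434, 5033 and 5602 in females, and the difference was -0.57 without male 005. The Slc40a1 difference was -0.05 in GHR+/+ livers and -0.54 in AAV-HLP-mGHR livers.

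Genes known as female-biased in normal liver were mostly lower in receptor-null males, by less than in GHR+/+ males. The table held 19 such genes, of which 18 were tested (A1bg was too low), and 15 were lower and 3 higher in males, with 0 called. At an unadjusted p under 0.05, 7 of the 18 were lower and 0 higher, where 5.58% of all genes were lower at such a p. The median log2 difference was -0.71 over the members and 0.00 over all genes tested. Over the 14 members tested in both, the median was -2.72 in GHR+/+ livers, and the same with Cyp2b9 and Cyp2b13 placed at their limit of 3 counts over the 3 males. Of the 15 members tested in GHR+/+ livers 6 were called, all lower in males, where 5.62% of all genes were called lower. In AAV-HLP-mGHR livers the median over the 18 was 0.14. Without male 005 and female 016 the median was -0.54, with 5 members higher in males and 9 lower and 1 higher at an unadjusted p under 0.05.

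Prlr had the most negative fitted difference among all genes tested (-2.57, SE 0.84, limma adjusted p = 0.311), and its males were widely spread: 76.4, 930.3 and 4368 against 2405, 4499 and 7516 in females. The lowest of the males were 005 and GHR-/- male 113, and 2 GHR-/- males were within the range of the females. The organic anion transporter Slco1a4 was lower in males (-0.68, SE 0.19), as were the monooxygenase Cyp2a22 (-1.17, SE 0.46) and the acyl-CoA thioesterase Acot4 (-0.58, SE 0.25). Each of these overlapped between the sexes.

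The Sult2a genes, which encode sulfotransferases of bile acids and steroids, were all lower in males: Sult2a1 by -1.23, Sult2a2 by -1.03, Sult2a3 by -0.86 and Sult2a5 by -1.15 on the log2 scale, of which Sult2a5 alone had an unadjusted p under 0.05. Sult2a1 was at 1315, 12729 and 32985 in males and 10629.8, 23644 and 29808 in females, so the highest value belonged to a male. In the 3 GHR+/+ males Sult2a1, Sult2a3 and Sult2a5 had 0 counts, and the GHR+/+ comparison did not test them. The GHR+/+ females were low as well, at 0 to 7588 for Sult2a1, 0.91 to 86.9 for Sult2a3 and 0 to 293 for Sult2a5. For each of these genes they were below every receptor-null female. Sult2a1, Sult2a2 and Sult2a5 share between 11.5% and 35.3% of their transcript windows, and reads could be split between them.

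Cyp2b9 and Cyp2b13, monooxygenases of the female-biased list, overlapped between the sexes. Cyp2b9 was at 4146, 17276 and 19354 in receptor-null males and 14262, 18547 and 24208 in females (log2 -0.48, SE 0.32, and -0.22 without male 005 and female 016), whereas the 3 GHR+/+ males had 1.2, 0 and 0 normalized counts and the GHR+/+ females 14915 to 18565. For Cyp2b9 most receptor-null mice of both sexes were therefore near the level of the GHR+/+ females. Cyp2b13 was at 791, 19397 and 27223 in receptor-null males and 10222, 21536 and 24761 in females, against 3121 to 14670 in GHR+/+ females. Of the 18 members, Cyp2a4 and Abcd2 had every male below every female, where 14 of all 1935 genes tested did. The fatty acid translocase Cd36 (0.17), Gstt3 (0.16) and the oxysterol hydroxylase Cyp39a1 (0.17) were the members higher in males.

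The list of male-biased genes, which left out the Mups, had a smaller median difference still. The table held 16, of which 13 were tested, and 8 were higher and 5 lower in males, with a median log2 difference of 0.33 against 2.31 over the same 13 members in GHR+/+ livers. None was called, whereas 11 of all 16 were called in GHR+/+ livers. All 11 were higher in males, where 7.12% of all genes tested in GHR+/+ livers were called higher. At an unadjusted p under 0.05, 4 of the 13 were higher and 0 lower in receptor-null males, where 5.48% of all genes were higher at such a p. Without male 005 and female 016 the median was 0.17, with 1 higher and 1 lower. Cyp2d9, a steroid hydroxylase of male liver, had the smallest p: males at 14113, 20022 and 39162 and females at 10054.6, 12186 and 15389, log2 difference 0.82 (SE 0.21, limma adjusted p = 0.186). In GHR+/+ livers males had 49641, 63134 and 69364 and females 140.7, 957 and 6299. Females without the receptor therefore had more Cyp2d9 than females with it, and males had less.

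The complement genes C8b (1.37, SE 0.47) and Hc (0.33, SE 0.15) and the peroxisomal hydrolase Nudt7 (0.39, SE 0.14) were the others with an unadjusted p under 0.05. C8b was highest in male 005: males were at 1060, 2591 and 12487, and the difference was 0.64 without this mouse. It was -0.48 in GHR-/- livers and 2.01 in AAV-HLP-Luc livers. Hc was also highest in male 005, at 46038 against 19114 to 38535 in the other males. Cyp7b1, the oxysterol hydroxylase of the acidic bile acid pathway, was at 1109, 1738 and 2734 in males and 1095, 1521 and 2018 in females (0.19, SE 0.16), and at 15136 to 25029.9 against 864.5 to 2860.5 in GHR+/+ mice. The complement gene C6 (-0.40) and the epidermal growth factor receptor Egfr (0.81, and 0.12 without male 005) overlapped between the sexes.

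Of the 3 members too low for the test, 1 was Cyp4a12a, an arachidonic acid hydroxylase of male liver. Its lowest male was only just above its highest female, both at very low counts. The males had 5.21, 52.5 and 934 normalized counts and the females 0, 0.43 and 4.21, against 8999 to 11026 in GHR+/+ males. Hsd3b5 and Slco1a1 were under 10 normalized counts in all 12 mice, at up to 9.55 and 7.498.

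Among the major urinary proteins, pheromone carriers that male liver secretes in large amounts, 11 of 14 genes were tested. Of these 10 were higher in males, with a median log2 difference of 1.29 against 6.35 in GHR+/+ livers. The median was 1.78 in GHR-/- livers and 0.04 in AAV-HLP-Luc livers, where 6 were higher and 5 lower, and it was 0.40 in the pooled comparison without female 016. Mup20 (darcin) alone had an unadjusted p under 0.05: males at 2803, 7248 and 13717 and females at 1396, 1977 and 5485 (1.59, SE 0.42, limma adjusted p = 0.186). GHR+/+ males were at 135294 to 156139, above every male without the receptor, and GHR+/+ females at 810.4 to 4720.2. Mup-ps19 did not overlap between the sexes (554, 949 and 3186 against 60.0, 217 and 498), but its interval was wide (2.30, SE 1.35), and 38.8% of the windows of the Mup20 transcript are shared with it.

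Several of the other Mups are near copies: Mup11, Mup12, Mup15, Mup16, Mup18 and Mup22 share between 64.7% and 92.7% of their windows with other Mups, so single values for them are uncertain. Their counts also spread widely within each sex, for instance 1.16 to 1646 for Mup12 in males and 4.24 to 1460 in females. Without male 005 and female 016 the median over the list was 0.73, with 8 higher in males. Mup7, Mup10 and Mup14 did not reach the minimum count in enough receptor-null livers.

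**Figure D2:**
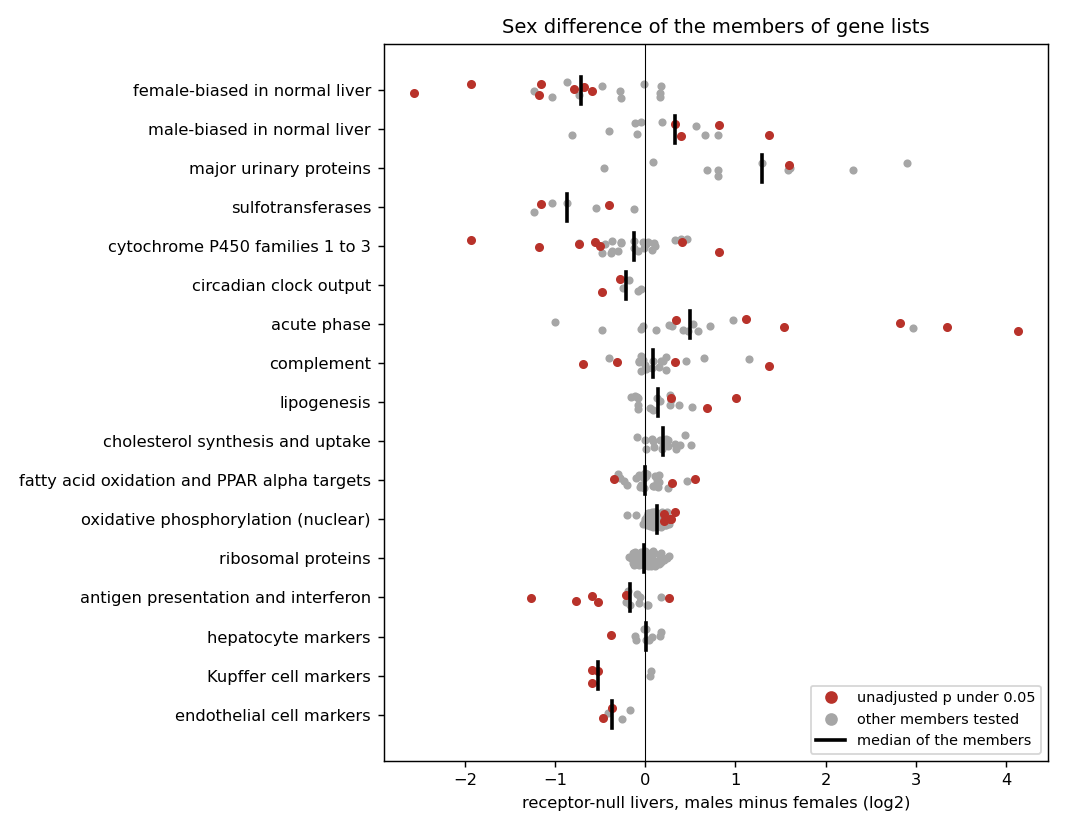
Log2 difference between receptor-null males and females for the tested members of 17 gene lists, 1 point per gene, red where the unadjusted p was under 0.05, with a black bar at the median of the members. Female-biased genes and sulfotransferases lay mostly below 0 (medians -0.71 and -0.86) and male-biased genes and Mups mostly above 0 (medians 0.33 and 1.29).

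The genes with a sex difference in GHR+/+ livers were then looked up in the receptor-null livers. These are different mice, so the choice of genes did not use the receptor-null values. In GHR+/+ livers 247 of 1938 genes were called (12.7%), 138 higher (7.12%) and 109 lower (5.62%) in males, and 596 had an unadjusted p under 0.05 (30.8%). Of the 135 male-higher genes that were tested without the receptor, 101 had the same sign (74.8%), with a median log2 difference of 0.16 against 0.60 with the receptor. Of the 109 female-higher genes 87 had the same sign (79.8%), with a median of -0.17 against -0.62. Over all 1931 genes tested in both, 62.8% had the same sign with size factors. The shares depended on the scaling. With library totals in place of size factors, 87 of the 135 male-higher genes (64.4%) and 96 of the 109 female-higher genes (88.1%) had the same sign.

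None of these 244 genes was called without the receptor, and 61 had an unadjusted p under 0.05 in the same direction and 1 in the opposite direction, where 11.1% of all genes had such a p in either direction. The GHR+/+ differences chose these genes, so their sizes are a description and give no test of a smaller difference without the receptor. Across the 244 genes, which are not independent replicates, Pearson's r between the differences was 0.640 and Spearman's rho 0.662. The GHR+/+ calls depended on single mice. Without GHR+/+ male 102 only 40 genes were called, of which 39 had the same sign in receptor-null livers and 17 an unadjusted p under 0.05. The count of calls was also more than 1.5 times lower without GHR+/+ male 103 (99) and without GHR+/+ females 119 (116), 120 (102) and 121 (145). Without male 005 and female 016, 180 of the 244 genes had the same sign and 48 an unadjusted p under 0.05.

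**Figure D3:**
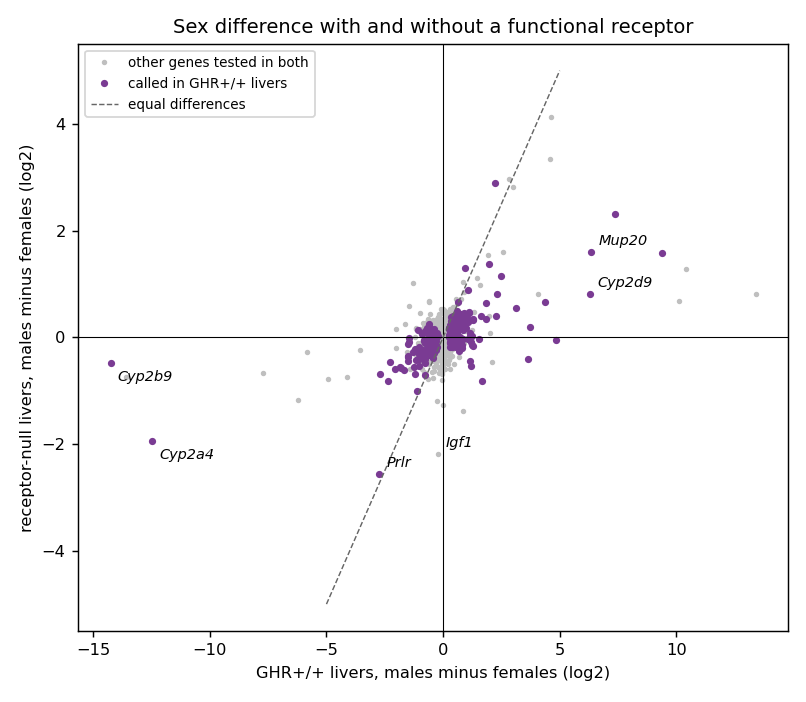
Log2 difference between males and females in receptor-null livers (vertical axis, 6 against 6) against that in GHR+/+ livers (horizontal axis, 3 against 3) for 1931 genes, purple where called in GHR+/+ livers, with a dashed line of equal differences and axes of unequal scale. Most purple points lie between the horizontal axis and the dashed line, 188 of 244 with the same sign. The horizontal positions of genes near 0 counts in one sex, such as Cyp2b9, depend on the offset added to counts.

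Whether the sex difference differed with the receptor was tested directly, as an interaction over 18 mice. It was called for 23 of 1939 genes (1.19%), and 237 had an unadjusted p under 0.05 (12.2%). For 16 genes the difference was more positive in GHR+/+ livers and for 7 more negative. In 22 of the 23 the receptor-null difference was smaller in size, the exception being Cyp2c67 (-0.50 against 0.48). The sign was opposite in 10 of the 23, for instance in C6 (-0.40 against 3.66) and Mug1 (-0.45 against 1.14). The 95% interval of the receptor-null difference covered 0 for 15 of them and left out 0 for 8. These genes were chosen by a test that uses the receptor-null values, so the counts describe them and are no further test.

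The genes of this group served several liver functions. Among those higher in GHR+/+ males were Cyp7b1 (interaction 3.51 log2 units), C6 (4.06), the sterol carrier Scp2 (1.19), the peroxisomal glycolate oxidase Hao1 (1.12), the glutathione transferase Gstp1 (2.59), the aldehyde oxidase Aox3 (1.59), the glucuronosyltransferase Ugt2b1 (1.30), the efflux pump Abcg2 (1.501), Cyp2d9 (5.65), Mup20 (4.71) and Ttc39c (1.86), which had the smallest adjusted p of the interaction (3.23e-06). Ttc39c was at 3366, 4204 and 6279 in receptor-null males and 2724, 3234 and 3926 in females (0.40), with 2.27 in GHR+/+ livers. Those lower in GHR+/+ males were Serpina6, which encodes corticosteroid-binding globulin (-1.84), Sult1a1 (-1.37), Cyp2c68 (-1.30), the flavin monooxygenase Fmo1 (-1.004), the methionine adenosyltransferase Mat1a (-0.89), the mitochondrial pyruvate carrier subunit Mpc1 (-0.87) and the tyrosine-degrading enzyme Hpd (-0.72). Mat1a and Mpc1 had small receptor-null differences of 0.13 and 0.10.

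The number of calls varied with single livers, from 57 without male 005 to 9 without GHR+/+ male 102, and 7 of the 23 genes were called in all 18 fits that left out 1 mouse. It was also more than 1.5 times lower without GHR+/+ male 103 (12), GHR-/- male 136 (15), AAV-HLP-Luc female 015 (13), GHR+/+ females 119 (11) and 120 (10) and GHR-/- females 132 (14) and 134 (15), and it was 50 without male 005 and female 016 together. Cyp2a4 was not called (interaction adjusted p = 0.241, limma), with 3.5 to 22.0 normalized counts in the GHR+/+ males.

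**Figure D4:**
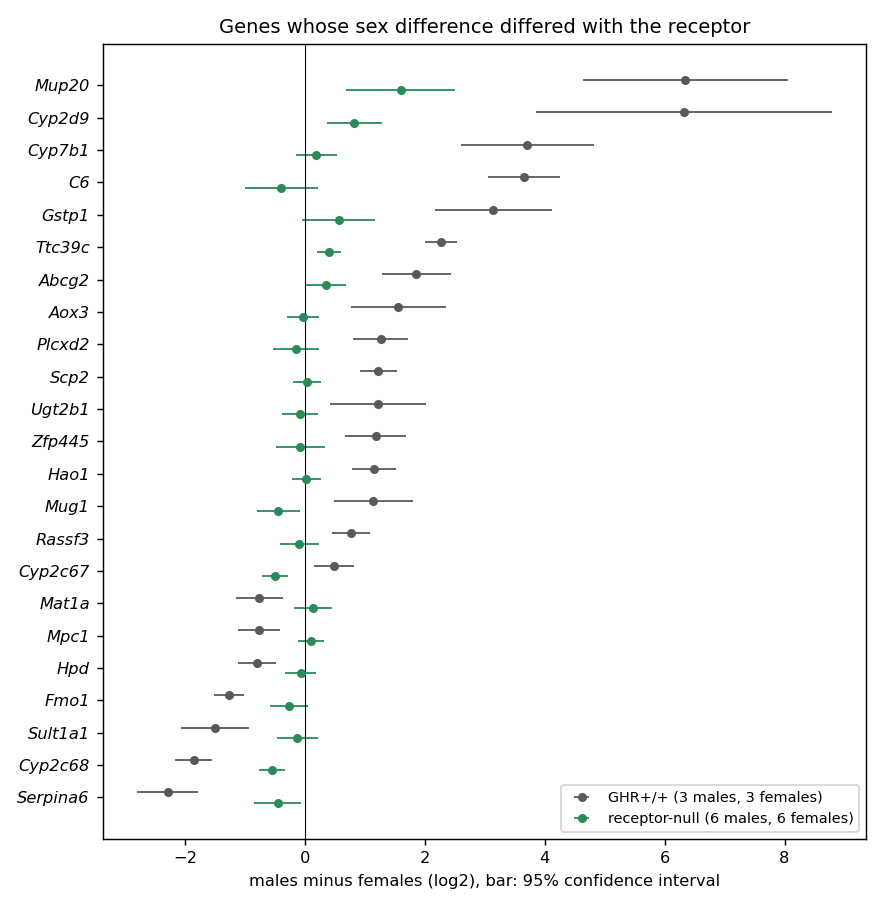
Log2 difference between males and females for the 23 genes whose difference was called to differ with the receptor, in GHR+/+ livers (grey) and receptor-null livers (green), with bars for the 95% confidence interval. Green points are nearer to 0 than grey points for 22 genes, and 10 genes, Cyp2c67 and C6 among them, have opposite signs.

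Within each receptor-null group the same comparison was made with 3 against 3. In GHR-/- livers 0 of 1935 genes were called (0%, limma-voom) and 152 had an unadjusted p under 0.05 (7.86%). limma-trend and quality weights gave no call either, and 3 genes were called when GHR-/- male 113 was left out. In AAV-HLP-Luc livers 1 gene was called (0.0517%), and 283 had an unadjusted p under 0.05 (14.6%). This gene was Cyp2a4, at 1047, 1670.1 and 1885 in the males and 9497, 12030 and 13258 in the females (-2.92, SE 0.27, adjusted p = 0.0415). The call was lost, with 0 genes called, without any one of the AAV-HLP-Luc mice other than male 005, and 2 genes were called without male 005. In GHR-/- livers the difference of Cyp2a4 was -1.22 (SE 0.28), with males at 4338, 4565 and 5432 and females at 7322, 10861 and 16972.

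The sex difference was called to differ between GHR-/- and AAV-HLP-Luc livers for 0 of 1935 genes (0%, limma-voom, and 0 under each alternative), and 243 had an unadjusted p under 0.05 (12.6%). For Cyp2a4 the estimate was -1.71 (SE 0.46, adjusted p = 0.332). In AAV-HLP-mGHR livers 0 of 1939 genes were called (0%, limma-voom) and 320 had an unadjusted p under 0.05 (16.5%), while quality weights gave 161 calls. There the differences of Cyp2a4 and Kyat3 were 0.10 and -0.01, and those of Lars2 and Igf1 0.78 and -0.86.

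The acute-phase genes, which hepatocytes induce in inflammation, depended on male 005. Of 20 members 16 were higher in males, 6 with an unadjusted p under 0.05 and 0 lower, with a median of 0.50. The serum amyloid genes Saa2 (4.13) and Saa1 (3.35) and the orosomucoid Orm2 (2.83) led. Saa1 was at 1168.5, 3822 and 322774 in males and 891, 1953 and 2839 in females. In GHR-/- livers its difference was -0.30 and in AAV-HLP-Luc livers 4.34. Without male 005 the median of the list was 0.20, and without female 016 as well it was 0.12, with 12 members higher.

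Genes of cholesterol synthesis and uptake also depended on this mouse. Of 17 members 15 were higher in males, 0 with an unadjusted p under 0.05, with a median of 0.20. The median was -0.01 without male 005, and without both livers 4 of 17 were higher in males (median -0.10). Among lipogenic genes 12 of 18 were higher in males (median 0.15), but 8 of 18 without male 005 and female 016 (median -0.02). There were 3 with an unadjusted p under 0.05: the desaturases Scd1 (0.69, SE 0.22) and Scd2 (1.01, SE 0.42) and the acyltransferase Gpam (0.29, SE 0.13). Scd2 was at 35576 in male 005, against 4886 to 7657 in the other males and 2871 to 7273 in females. Gpam was also highest in male 005, at 14274 against 8829 to 12839 in the other males and 8020 to 10333 in females. Scd1 was at 152157, 341137 and 437997 in males and 147657, 165376 and 339601 in females.

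Nuclear genes of oxidative phosphorylation leaned one way by a small amount. Of 59 members 53 were higher in males, 5 with an unadjusted p under 0.05 (5.48% of all genes) and 0 lower, with a median of 0.13. The complex I genes Ndufa8 (0.32, SE 0.09) and Ndufv1 (0.21, SE 0.07) led with Atp5mc3 and Sdhc. Without male 005 and female 016, 57 of 59 were higher, 12 with an unadjusted p under 0.05 (median 0.17), and over the alternatives the number was 42 to 57. In GHR+/+ livers the median was -0.02. Of 63 ribosomal protein genes 27 were higher and 36 lower (median -0.01), with 0 at an unadjusted p under 0.05 in the limma fit, and 34 were higher without both livers (median 0.02).

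For fatty acid oxidation and PPAR alpha targets 15 of 30 genes were higher (median 0.00), with 2 above and 1 below at an unadjusted p under 0.05, among them Cpt2, the inner mitochondrial carnitine acyltransferase (0.29), and the ketone body enzyme Bdh1 (-0.35). Without both livers 26 of 30 were higher (median 0.18), 8 of them with such a p.

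All 7 sulfotransferases were lower in males (median -0.86), 2 with an unadjusted p under 0.05 (Sult2a5 and the catecholamine sulfotransferase Sult1d1, -0.40), and 0 of 7 were higher without the 2 livers. In the Cyp1, Cyp2 and Cyp3 families 10 of 29 genes were higher and 19 lower (median -0.12), 2 and 5 of them with an unadjusted p under 0.05. Of 19 bile acid genes 6 were higher (median -0.21), and 8 without both livers (median -0.10). Cyp8b1, the hydroxylase that sets the share of cholic acid, was the one with the largest difference: males at 2245, 9423 and 16598 and females at 2148, 2629 and 6162 (1.30, SE 0.44), with 0.93 in GHR+/+ and 1.15 in AAV-HLP-mGHR livers. The sterol exporter Abcg5 (-0.54) and the bile acid receptor Nr1h4 (-0.27) were lower at an unadjusted p under 0.05.

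All 6 clock output genes were lower in males (median -0.22), Dbp and Hlf (-0.28) with an unadjusted p under 0.05. Dbp was at 5086, 5887 and 7419 in males and 7593, 7959 and 9486 in females, and in GHR+/+ livers its difference was -0.75, with overlap. The hour at which livers were taken is not given in the sources used here, and its part in these values was not tested.

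Of 15 genes of antigen presentation and interferon response 4 were higher and 11 lower in males (median -0.17), 1 and 5 with an unadjusted p under 0.05. The interferon-induced GTPases Iigp1 (-1.27, SE 0.33) and Irgm2 (-0.76, SE 0.31) were lower. Iigp1 was at 1935, 4748 and 5807 in males and 5483, 9609 and 16796 in females, and in GHR+/+ livers its difference was 0.00.

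Markers of cells other than hepatocytes were mostly lower in males. Of 13 tested markers of Kupffer cells, endothelial cells, stellate cells and leukocytes 11 were lower in males, 8 with an unadjusted p under 0.05 (5.58% of all genes) and 0 higher, with 0 called and a median of -0.42. Their summed normalized count was 37379, 49284 and 59076 in males and 50886, 65560 and 72896 in females (lowest, median, highest), with overlap. The Kupffer cell genes Clec4f (-0.59, SE 0.15), Cd5l (-0.59, SE 0.21) and Csf1r (-0.52, SE 0.20), the endothelial genes Ptprb (-0.47) and Ehd3 (-0.36), the stellate gene Dcn (-0.70, SE 0.18) and the leukocyte genes Lcp1 (-0.26) and Cd74 (-0.59) made up the 8. The 2 markers higher in males were both Kupffer cell markers (5 tested, 3 lower), with differences of at most 0.07. In GHR+/+ livers the median over the same 13 was -0.04 and in AAV-HLP-mGHR livers -0.52. Without male 005 and female 016 it was -0.49, with 11 at such a p. In bulk RNA fewer cells of a type and less RNA per cell cannot be told apart, and the part of these cells in the interferon, Slc40a1 and other differences was not tested.

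The other lists had medians between -0.29 and 0.11. Of 15 glutathione transferases 9 were higher in males (median 0.10), of 9 carboxylesterases 4 (-0.11), of 9 UDP-glucuronosyltransferases 1 (-0.13), of 5 Cyp4 genes 1 (-0.20), of 8 Serpina1 and Serpina3 genes 5 (0.11), of 16 steroid genes 7 (-0.07), of 22 complement genes 13 (0.08) and of 19 coagulation genes 13 (0.07). Several of these changed sides without male 005 and female 016: 5 of 19 coagulation genes were then higher (median -0.04), 10 of 22 complement genes (-0.01), 3 of 8 Serpina1 and Serpina3 genes (-0.04), 10 of 16 steroid genes (0.06), 6 of 9 carboxylesterases (0.09) and 3 of 5 Cyp4 genes (0.06). Of 12 genes of growth hormone, IGF and JAK-STAT signaling 3 were higher (median -0.09), and the cytokine receptor gene Lifr (-0.38), Igf1 and Prlr were lower and Stat3 (0.37) higher at an unadjusted p under 0.05. Of 8 pericentral genes 2 were higher (median -0.29) and of 12 periportal genes 7 (0.03). Mbl2, a lectin of the complement pathway (-0.69, SE 0.17), and Hsd17b6, a steroid dehydrogenase (-0.83, SE 0.36), were lower in males, and Gstm3 was higher (0.46, SE 0.16).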

How the data were processed

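Liver poly(A) RNA of 24 mice was sequenced by the authors as stranded libraries, trimmed with fastp, aligned to mm39 with Hisat2 and counted per gene with featureCounts (version 1.5.0-p3, per the submitters' processing notes); the authors tested their counts with DESeq2. The deposited files hold the authors' own enrichment results (enrichment scores, p-values and leading genes) and were not used. The counts analysed here are the raw counts per gene of a supplementary table of the study, of which 1999 genes were in hand. Each mouse has its own number and was 1 replicate.

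Counts were divided by median-of-ratios size factors from autosomal genes of the 24 libraries. Genes with at least 10 counts in at least 6 of the 12 libraries (3 within 1 group) were fitted with limma-voom (limma 3.58.1, R 4.3.3, offset 0.5) with sex and group as terms, and p-values were adjusted by Benjamini-Hochberg over all autosomal genes tested. Differences are males minus females. The code was tested on simulated data. Coordinates and promoters are from GENCODE on GRCm39. Alternatives were library totals, other size factors and filters, limma-trend, quality weights, other gene and library sets, no covariate and leaving out each mouse. Named genes were the 20 with the smallest p among those without overlap, the members of the sex-biased and Mup lists, up to 4 with the smallest p of each other list, genes called in another comparison, and Ghr, Igf1 and Ddx3y. Cyp2a5, Abhd2 and Alb were singled out after their values were seen. The members and lists were chosen with earlier results of these data known. The result for 1 of the named genes is not reported here.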

Additional observations from a re-analysis of the deposited data

Results flagged for a closer look

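Among 124 sets of 6 values, from 61 genes, 22 held 1 mouse far from the other 5, where chance gives about 1 in 20. The number after each gene is the distance of that mouse to its nearest neighbor as a share of the range of the 6. AAV-HLP-Luc male 005 was the lowest male for Eif4b (0.657), Cyp4a14 (0.659), Cyp2b13 (0.813), Cyp2b9 (0.738), Gstt3 (0.648), Sult2a3 (0.678), Vnn1 (0.814), Hsd11b1 (0.785), Mup12 (0.681), Mup22 (0.723), Mup15 (0.786). It was the highest male for Hp (0.637), Egfr (0.663). AAV-HLP-Luc female 016 was the lowest female for Cyp2b13 (0.729), Sult2a2 (0.653), Sult2a1 (0.714), Fmo1 (0.656), Gstt3 (0.701), Sult2a3 (0.655), Mup18 (0.721). It was the highest female for Serpina1e (0.653). AAV-HLP-Luc male 002 was the lowest male for Npc2 (0.629). What sets these mice apart was not tested.

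The sex difference was called to differ with the receptor for 23 genes by the interaction in limma. Ttc39c, Cyp2c68, Cyp7b1, C6, Scp2, Serpina6 and Hao1 were called in all 18 fits that left out 1 mouse. The others were called in fewer, down to 4 of 18 for Mpc1 and Mat1a. Values are the GHR+/+ difference minus the receptor-null difference, on the log2 scale. The difference was more positive in GHR+/+ livers for Ttc39c (1.86), Cyp7b1 (3.51), C6 (4.06), Scp2 (1.19), Cyp2d9 (5.65), Hao1 (1.12), Mup20 (4.71), Cyp2c67 (0.98), Gstp1 (2.59), Aox3 (1.59), Mug1 (1.58), Plcxd2 (1.41), Abcg2 (1.501), Rassf3 (0.87), Zfp445 (1.27), Ugt2b1 (1.30). It was more negative for Cyp2c68 (-1.30), Serpina6 (-1.84), Sult1a1 (-1.37), Hpd (-0.72), Fmo1 (-1.004), Mpc1 (-0.87), Mat1a (-0.89).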

How the results depend on the processing

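The pooled comparison of receptor-null males and females called 0 genes with library totals, other size factors, other filters or no covariate, and 3 with limma-trend, 4 with quality weights, 2 with X, Y and mitochondrial genes included and 10 in one fit over the 24 libraries; leaving out 1 mouse gave 0 to 3. In GHR-/- livers X, Y and mitochondrial genes gave 1 call, and leaving out 1 mouse gave 0 to 3. In AAV-HLP-Luc livers one fit gave 33 and leaving out 1 mouse 0 to 2. In GHR+/+ livers quality weights gave 415 and leaving out 1 mouse 40 to 206. The receptor interaction gave 45 with limma-trend, 150 with quality weights, 50 without AAV-HLP-Luc male 005 and female 016, and 9 to 57 without 1 mouse. In AAV-HLP-mGHR livers quality weights gave 161, and X, Y and mitochondrial genes and one fit gave 1 each. The cause of these changes was not tested. For 170 named genes, 3734 values under 22 alternatives held 80 changes of sign, in 26 genes, and 14 genes passed the threshold under some alternative. No paired analysis was possible because the groups share no replicate numbers. Only abundant genes were in hand, vector and age differ together between the groups, and 3 mice per sex limit the comparisons within a group.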
